A study of Bos indicus with 11 samples.

Results

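Endothelial cell genes were examined in endometrial biopsies of Nelore (Bos indicus) cows. The list holds 36 genes known from general knowledge to be expressed in the cells that line blood and lymph vessels, and a member was taken wherever the gene symbol of the deposited table equalled a listed name and the mean was at least 5 normalized counts over the 11 cows. The symbols CD93 and MYCT1 matched no row, so 34 genes of 15081 with that mean were described, 31 of them general endothelial genes and 3 of them markers of lymphatic vessels (LYVE1, PROX1 and STAB1). All 34 genes found in the table passed the minimum on the mean.

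All cows were adult, healthy, multiparous and non-lactating. Estrus was synchronized with a prostaglandin F2α analogue and the cows were inseminated artificially after estrus. On day 6 after insemination a biopsy was taken from the uterine horn opposite to the ovary with the corpus luteum, and the cows were grouped afterwards by the pregnancy diagnosis of day 30 as pregnant (P, n = 6) or non-pregnant (NP, n = 5). Both groups were selected for similar plasma progesterone on day 6, and each RNA-Seq library came from the biopsy of 1 cow. The cows of the P group are named P617, P904, P1541, P1631, P1753 and P2396, and those of the NP group NP238, NP638, NP856, NP2541 and NP2810. The labels place P617 in the P group, whereas a supplement of the study names it as non-pregnant. It was kept as labelled, and counts without it are given below. A biopsy is a piece of mixed tissue, so in all results below fewer endothelial cells and less RNA per endothelial cell cannot be told apart.

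Endothelial cells form the inner wall of blood vessels. PECAM1 and the cadherin of CDH5 join them to each other, VWF is stored and released in response to injury, and the nitric oxide synthase of NOS3 relaxes the vessel wall. Transcription factors of the ETS family such as ERG, and SOX factors such as SOX7 and SOX18, maintain this cell type. Lymphatic endothelium depends on PROX1, and carries the hyaluronan receptor encoded by LYVE1. The endometrial vessels of ruminants grow and regress with each estrous cycle under the control of ovarian steroids.

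Values are normalized counts, that is reads per gene divided by a size factor for each cow, and between 9290949 and 13569085 reads fell on genes per cow. Genes differ in length, so the level of a gene or of a set of genes was compared between cows, not with that of another gene. Differences are log2 fold changes of NP over P on the scale log2(normalized count + 1), tested with limma across all 15081 genes, and a value above 0 means more RNA in NP cows. The standard error of a log2 fold change is abbreviated SE. In limma 0 of these genes (0%) passed an adjusted p-value of 0.1, so an unadjusted p-value under 0.05 was counted beside it. Before any comparison, 3 P cows need mention. P617 and P1541 had the 2 highest summed levels of 10 smooth muscle markers, 573151 and 382926 normalized counts, where the other P cows ranged from 63428 to 142726 and the NP cows from 31384 to 223072. P617 also had the lowest summed level of 11 epithelial markers, 2555 normalized counts against 8902 to 24164 in the rest of the P cows. P904 had endothelial levels like those of NP cows, as described below, and the lowest smooth muscle level among the P cows.

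Most endothelial genes had higher levels in NP cows, though 0 members passed adjustment in limma. Of the 34 members, 33 had a log2 fold change above 0, compared with 50.2% of all genes tested, and 25 were higher in NP cows with an unadjusted p-value under 0.05, compared with 5.49% of all genes tested. Higher in P cows with an unadjusted p-value under 0.05 were 0 members, compared with 2.35% of all genes. The general genes varied together across cows, with a median correlation of 0.79 between pairs, so these counts are not separate pieces of evidence. The list was also chosen with earlier results of these data known. The median log2 fold change was 0.72 over the 31 general genes, a 1.64-fold difference, and 0.0018 over all genes. After adjustment over all genes, 0 members passed the threshold of 0.1, with adjusted p-values in limma from 0.231 for APOLD1 to 0.995 for PROX1. On whole reads recovered from the table, the negative binomial test of DESeq2 called 5 members at an adjusted p-value under 0.1, all higher in NP cows, compared with 1.13% of all genes. These were APOLD1, S1PR1, ACVRL1, CDH5 and SHANK3. All of them stand in the list of differing genes that the study drew from these same samples, so their direction is not independent evidence.

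**Figure D1:**
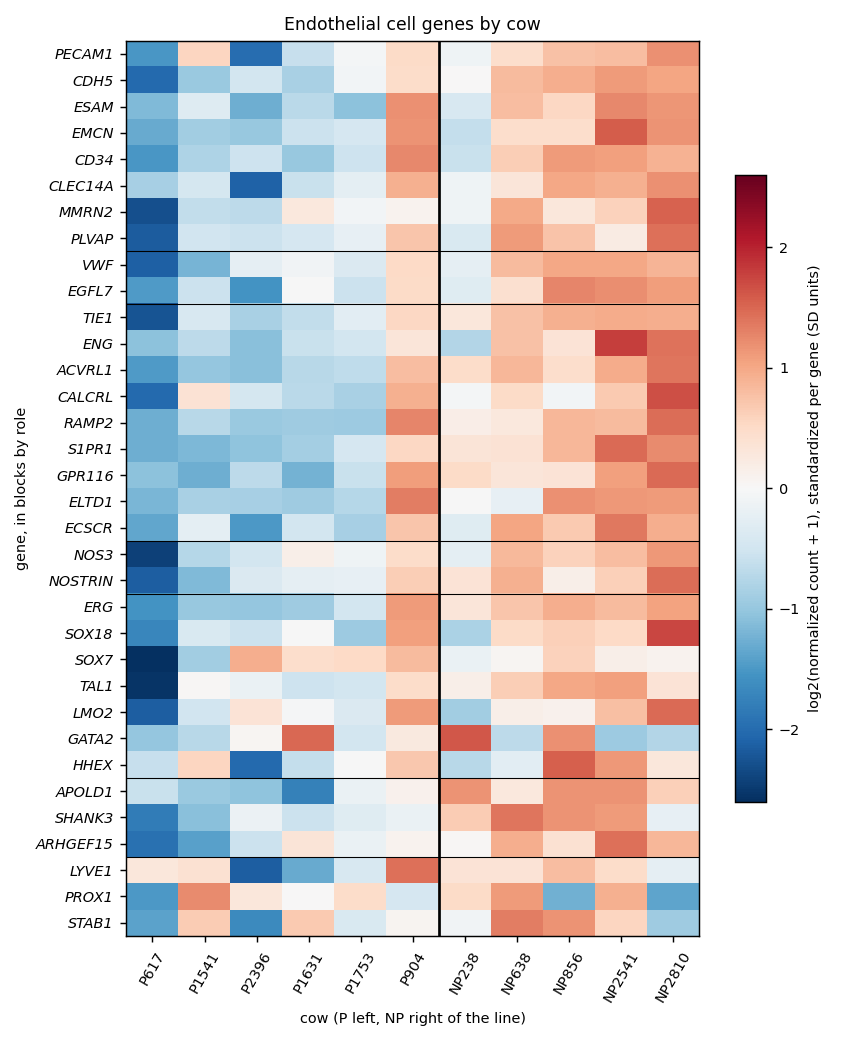
Each row is 1 of the 34 endothelial genes and each column 1 cow, and the colour gives log2(normalized count + 1) standardized per gene over the 11 cows in SD units, with genes in blocks by role. The column of P617 is the lowest for 22 of the 31 general genes, and the column of P904 resembles those to the right of the line, the NP cows.

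P904 was the P cow with the highest endothelial levels. It was the highest P cow in 25 of the 31 general genes and lay above the median NP cow in 14 of them, and it lay above the lowest NP cow in 30. The mean log2(normalized count + 1) of the general genes was 9.36 in P904, between 7.84 and 8.67 in the rest of the P cows, and between 8.90 and 9.57 in NP cows. Over the groups this mean was 8.57 ± 0.49 (SD, n = 6) in P and 9.33 ± 0.26 (SD, n = 5) in NP, a difference of 0.76, and without P904 the P mean was 8.41 ± 0.33 (SD, n = 5) and the difference 0.91. P617 was the lowest of all 11 cows in 22 general genes, and P2396 in 7. In the NP group, NP238 was lowest in 23 of the 31 genes, and NP2810 was highest in 13.

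With all 11 cows, the groups did not overlap in 1 of the 34 members, APOLD1, compared with 0.855% of all genes tested. Without P904 this held for 12 members, compared with 2.61% of all genes, and the groups overlapped in the others. Besides APOLD1 these were CDH5, CLEC14A, TIE1, ACVRL1, RAMP2, S1PR1, GPR116, ELTD1, NOSTRIN, ERG and TAL1. Without P904, limma called 12 members at an adjusted p-value under 0.1, all higher in NP cows, compared with 1.11% of all genes. P904 was singled out for its high levels of these same genes, so leaving it out favours higher counts among them by construction. The shares of all genes are therefore not a like comparison for these counts. Leaving out P617, P1541 and P904 together, a choice made after seeing the data, also gave 12 members called higher in NP cows, compared with 3.11% of all genes. When any other single cow was left out, 0 members were called. Without P617 alone, 22 members were higher in NP cows with an unadjusted p-value under 0.05, compared with 6.18% of all genes, and the median log2 fold change of the general genes was 0.64.

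**Figure D2:**
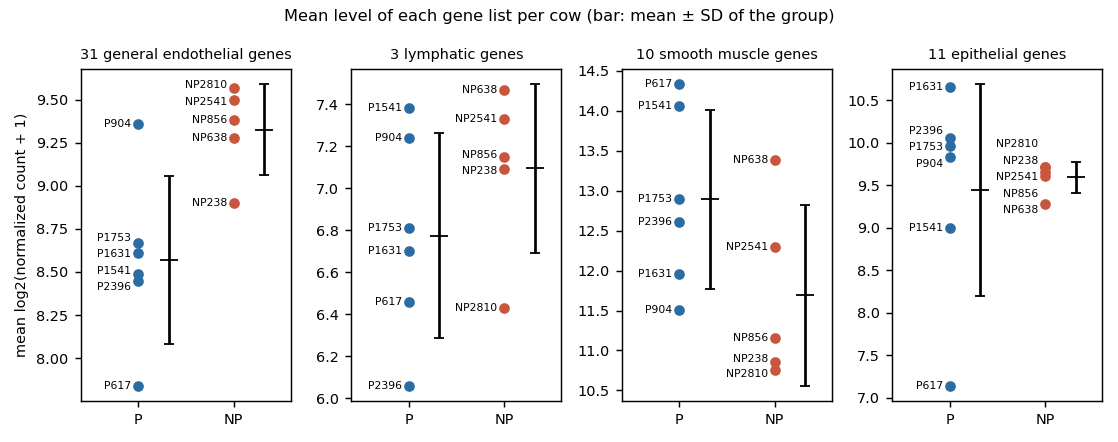
Mean log2(normalized count + 1) per cow over the 31 general endothelial genes, the 3 lymphatic genes, 10 smooth muscle genes and 11 epithelial genes, with P cows in blue, NP cows in red and the mean ± SD of each group as a bar. For the general genes 5 P cows lie between 7.84 and 8.67, below all NP cows, and P904 lies at 9.36. P617 and P1541 are highest for smooth muscle, at 14.33 and 14.06.

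All 8 surface and junction genes had an unadjusted p-value under 0.05 and were higher in NP cows, compared with 5.49% of all genes. Their log2 fold changes ran from 0.55 for PECAM1 to 1.10 for MMRN2, with a median of 0.69. PECAM1 (ENSBTAG00000012066), an adhesion molecule of endothelial junctions and of platelets and leukocytes, ranged in P cows from 472 to 1102 normalized counts with a median of 823. The NP cows had 882 (NP238), 1202 (NP2541), 1360 (NP2810), 1069 (NP638) and 1184 (NP856). P1541, P904 and P1753, at 1102, 1083 and 898, lay above NP238, while P2396 and P617 were the lowest. The log2 fold change of PECAM1 was 0.55 (SE 0.228, limma adjusted p = 0.579).

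CDH5 (ENSBTAG00000007421) encodes VE-cadherin, the defining adhesion molecule of endothelial junctions. Its normalized counts in P cows ran from 210 to 670, with a median of 397. Its NP values were 538 in NP238, 903 in NP2541, 863 in NP2810, 791 in NP638 and 832 in NP856. P904, at 670, exceeded NP238 alone, and the other P cows reached 518 at most, below all NP cows. The group means were 422 ± 159 (SD, n = 6) in P and 786 ± 144 (SD, n = 5) in NP. CDH5 had a log2 fold change of 0.96 (SE 0.261, limma adjusted p = 0.330), and DESeq2 gave an adjusted p-value of 0.0938.

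P904 was the highest P cow in 5 of the remaining 6 surface genes. ESAM, a junctional adhesion molecule, averaged 431 ± 177 (SD, n = 6) normalized counts in P and 656 ± 146 (SD, n = 5) in NP. EMCN, the sialomucin endomucin of veins and capillaries, and CD34, a sialomucin shared with blood progenitor cells, had P904 far above the other P cows. P904 had 1903 normalized counts of EMCN and the other P cows 702 to 996, against 926 to 2247 in NP cows. For CD34 it had 1263 and the other P cows 401 to 603, against 595 to 1185 in NP cows, so that P904 was the highest of all 11 cows. CLEC14A, a C-type lectin receptor, and MMRN2, a matrix protein that binds to it, had log2 fold changes of 0.81 and 1.10 (SEs 0.297 and 0.401). PLVAP, which forms the diaphragms of fenestrated capillaries, averaged 822 ± 298 (SD, n = 6) in P and 1307 ± 380 (SD, n = 5) in NP.

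Of the secreted products, VWF (ENSBTAG00000012265) encodes von Willebrand factor, which tethers platelets. The P cows spread from 629 (P617) to 2819 (P904) normalized counts around a median of 1762. NP238 had 1847, NP2541 had 3734, NP2810 had 3469, NP638 had 3361 and NP856 had 3735. Thus 4 NP cows lay above every P cow and NP238 lay near the middle of the P group. The log2 fold change of VWF was 1.06 (SE 0.347, limma adjusted p = 0.444). EGFL7, a small secreted factor of the vessel matrix, had 81.8 ± 23.8 (SD, n = 6) normalized counts in P and 132 ± 29.5 (SD, n = 5) in NP, a log2 fold change of 0.70 (SE 0.244, limma adjusted p = 0.479).

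All 9 receptor and signalling members were higher in NP cows, 8 of them with an unadjusted p-value under 0.05, compared with 5.49% of all genes. The median log2 fold change of the 9 was 0.77. S1PR1 (ENSBTAG00000005990), the receptor for sphingosine 1-phosphate that holds the endothelial barrier tight, had 705 to 1510 normalized counts in P cows with a median of 800. In NP cows it had 1386, 2242, 2027, 1413 and 1736 for NP238, NP2541, NP2810, NP638 and NP856. Apart from P904, the highest P cow had 1001, so P904 alone reached into the NP range. The log2 fold change of S1PR1 was 0.96 (SE 0.209, limma adjusted p = 0.264), and DESeq2 gave an adjusted p-value of 0.0202.

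ACVRL1 (ENSBTAG00000013843) encodes ALK1, a receptor for BMP9 and BMP10 in blood vessels, and ENG encodes its co-receptor endoglin. The lowest, median and highest P cows had 561, 727 and 1434 normalized counts of ACVRL1. The NP cows had 1254 (NP238), 1537 (NP2541), 1833 (NP2810), 1481 (NP638) and 1249 (NP856). The groups were set apart by a gap from 787 to 1249 except for P904, which fell inside the NP range. ACVRL1 had a log2 fold change of 0.91 (SE 0.214, limma adjusted p = 0.264, DESeq2 adjusted p = 0.0597), compared with 0.52 (SE 0.175, limma adjusted p = 0.459) for ENG. ENG averaged 664 ± 98.6 (SD, n = 6) in P and 969 ± 248 (SD, n = 5) in NP.

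CALCRL and RAMP2 form the receptor for adrenomedullin, a dilator and growth factor of vessels. For RAMP2 the mean was 1965 ± 877 (SD, n = 6) normalized counts in P and 3084 ± 615 (SD, n = 5) in NP, with P904 at 3743 and the remaining P cows at 1430 to 1758. Its log2 fold change was 0.72 (SE 0.236, limma adjusted p = 0.446). CALCRL had a log2 fold change of 0.71 with a 95% interval from -0.05 to 1.47, and was the receptor gene that missed an unadjusted p-value of 0.05. Its NP values reached 1145 in NP2810, while NP238 and NP856, at 490 and 487, lay below P1541 and P904.

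TIE1, an orphan receptor that modulates angiopoietin signalling, had 155 to 557 normalized counts in P and 499 to 676 in NP, a log2 fold change of 0.94. GPR116 and ELTD1, also named ADGRF5 and ADGRL4, are adhesion G protein-coupled receptors. GPR116 had 811 to 1101 normalized counts in the P cows other than P904, 2270 in P904 and 1622 to 2675 in NP cows. ELTD1 had 401 to 482 in the P cows other than P904, 1179 in P904 and 610 to 1116 in NP cows, so that P904 was above every NP cow. ECSCR, a surface regulator of endothelial migration, averaged 275 ± 95.4 (SD, n = 6) in P and 461 ± 104 (SD, n = 5) in NP. The log2 fold changes were 0.85 for GPR116, 0.73 for ELTD1 and 0.77 for ECSCR, with SEs of 0.257, 0.283 and 0.239.

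NOS3 (ENSBTAG00000017680) encodes endothelial nitric oxide synthase, and NOSTRIN encodes a protein that moves this enzyme away from the cell membrane. P617 had 35.0 normalized counts of NOS3, and the median and highest P cows had 157 and 263. The NP cows had 160, 329, 415, 340 and 285 for NP238, NP2541, NP2810, NP638 and NP856. Apart from NP238, every NP cow exceeded every P cow. Both NOS3 and NOSTRIN were higher in NP cows, by log2 fold changes of 1.13 (SE 0.457, limma adjusted p = 0.563) and 0.98 (SE 0.336, limma adjusted p = 0.467). Without P617 the log2 fold change of NOS3 was 0.75.

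Of the 7 transcription factors, 2 (ERG and TAL1) were higher in NP cows at an unadjusted p-value under 0.05, against the 5.49% of all genes given above, and the median log2 fold change was 0.34. The difference from the other roles was not tested. ERG (ENSBTAG00000011001), the ETS factor that maintains endothelial identity, had 162, 218 and 595 normalized counts in the lowest, median and highest P cows. Its NP values were 407, 522, 580, 496 and 551 for NP238, NP2541, NP2810, NP638 and NP856. The highest value of all was that of P904, and the other P cows ended at 274. The log2 fold change of ERG was 1.00 (SE 0.279, limma adjusted p = 0.335).

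TAL1, LMO2 and GATA2 encode partners in a transcription complex of endothelial and blood precursor cells, and differed from each other here. TAL1 averaged 50.4 ± 24.2 (SD, n = 6) in P and 95.8 ± 24.2 (SD, n = 5) in NP, a log2 fold change of 1.09 with a 95% interval from 0.14 to 2.04. LMO2 averaged 1062 ± 414 (SD, n = 6) in P and 1314 ± 454 (SD, n = 5) in NP, a log2 fold change of 0.34 with an interval from -0.35 to 1.03. GATA2, which is also a factor of endometrial epithelium and stroma and of mast cells, averaged 2864 ± 586 (SD, n = 6) and 2992 ± 803 (SD, n = 5). Its log2 fold change was 0.05 with an interval from -0.36 to 0.46, and its sign turned when P617, NP238 or NP856 was left out. NP238 and P1631 were the highest cows for GATA2, at 4032 and 3931 normalized counts.

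The SOX factors and HHEX, a homeobox factor of early endothelium, all missed an unadjusted p-value of 0.05. SOX18 had a log2 fold change of 0.54 (95% interval -0.12 to 1.20) and HHEX of 0.34 (-0.28 to 0.96). SOX7 had 12.4 normalized counts in P617, 34.8 in P1541, and 78.8 to 105 in the remaining P cows, against 53.6, 65.1, 63.2, 61.9 and 85.0 in NP238, NP2541, NP2810, NP638 and NP856. The 2 P cows with the highest smooth muscle levels were thus the lowest for SOX7, and the remaining 4 P cows lay above 4 of the NP cows. Its log2 fold change was 0.22 (interval -0.86 to 1.30) with all cows and -0.47 without P617 and P1541. Without those cows SOX7 was the member higher in P cows with an unadjusted p-value under 0.05, compared with 4.01% of all genes, and with all cows its log2 fold change was negative in edgeR and DESeq2.

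APOLD1 (ENSBTAG00000002362), an early response gene of endothelial cells under stress, had the largest difference of the 34 members. In P cows it ran from 86.8 (P1631) to 323 (P904) normalized counts, with a median of 175. The NP cows had 684, 684, 463, 365 and 687 for NP238, NP2541, NP2810, NP638 and NP856. The lowest NP cow was above the highest P cow, and P904 was here the nearest to the NP group, whereas P617, at 199, was not low. The means were 195 ± 86.8 (SD, n = 6) in P and 577 ± 152 (SD, n = 5) in NP. APOLD1 had a log2 fold change of 1.64 (SE 0.319, limma adjusted p = 0.231, DESeq2 adjusted p = 0.00151), a 3.11-fold difference, and 1.43 to 1.81 on the log2 scale with any 1 cow left out.

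SHANK3 encodes a scaffold protein best known from synapses. SHANK3 averaged 374 ± 56.8 (SD, n = 6) in P and 544 ± 80.7 (SD, n = 5) in NP. NP2810, at 416, lay just below P2396 and P904, at 422 and 421, and the other NP cows lay above all P cows. The log2 fold change of SHANK3 was 0.54 (SE 0.146, limma adjusted p = 0.323, DESeq2 adjusted p = 0.0570), and that of ARHGEF15 was 0.66 (SE 0.227, limma adjusted p = 0.467).

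**Figure D3:**
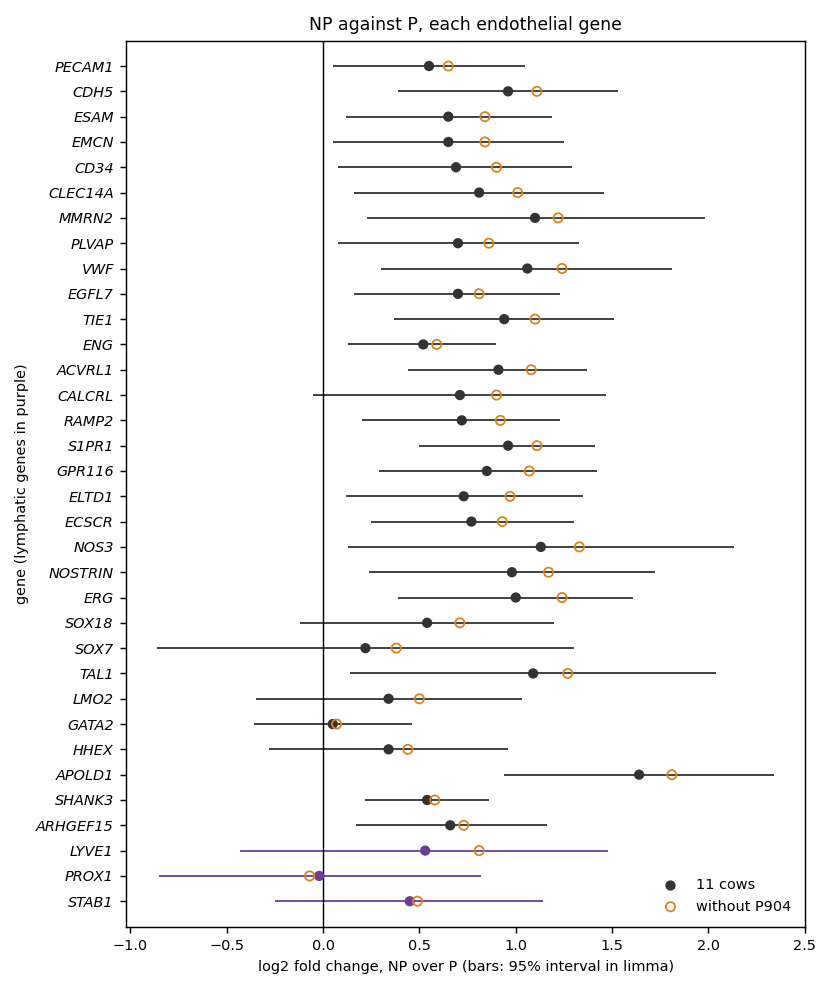
Log2 fold change of NP over P for each of the 34 genes, with the 95% interval in limma as a line (lymphatic genes in purple) and the value without P904 as an open circle. The general genes run from 0.05 for GATA2 to 1.64 for APOLD1, and the 3 lymphatic genes have intervals that include 0.

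The lymphatic genes were described apart from the general ones, and the difference between these sets was not tested. Of the 3, 0 had an unadjusted p-value under 0.05 (limma, 0.188 to 0.962), where 25 of the 31 general genes did, and their median log2 fold change was 0.45. LYVE1 (ENSBTAG00000000802), the hyaluronan receptor of lymphatic vessels and of some macrophages, had 94.5 (P2396) to 716 (P904) normalized counts in P cows, with a median of 314. In NP238, NP2541, NP2810, NP638 and NP856 it had 392, 420, 281, 391 and 501. The NP cows all lay within the range of the P cows, and P617, which was low for most general genes, had 377. The log2 fold change of LYVE1 was 0.53 with a 95% interval from -0.43 to 1.48. It was 0.81 without P904, and 1.34 (limma adjusted p = 0.0635) without P617, P1541 and P904, where LYVE1 was among the 12 members called.

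PROX1 (ENSBTAG00000010978), the factor that sets lymphatic identity, had 6.78 to 20.3 normalized counts in P cows (median 13.3) and 15.2, 18.0, 7.14, 19.3 and 7.53 in NP238, NP2541, NP2810, NP638 and NP856. Such values rest on few reads per cow, and counting error is a large part of their spread. Its log2 fold change was -0.02 with an interval from -0.85 to 0.82, which leaves room for a difference as large as that of most general genes. STAB1, a scavenger receptor of lymphatic and sinusoidal endothelium and of macrophages, averaged 381 ± 146 (SD, n = 6) in P and 512 ± 179 (SD, n = 5) in NP, a log2 fold change of 0.45 with an interval from -0.25 to 1.14. Per cow, the mean over the 3 lymphatic genes was 6.78 ± 0.49 (SD, n = 6) in P and 7.09 ± 0.40 (SD, n = 5) in NP on the log2 scale. The general minus the lymphatic mean, whose size depends on gene lengths and which is compared only between the groups, was 1.80 ± 0.47 (SD, n = 6) in P and 2.24 ± 0.54 (SD, n = 5) in NP, and the difference of 0.44 was smaller than the spread within each group.

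Other genes of the same cell types, listed beside the members from general knowledge, were counted in the same way. Of 24 further blood vessel genes tested, 22 had a log2 fold change above 0 and 12 had an unadjusted p-value under 0.05, all higher in NP cows. They include the receptors FLT1 (log2 fold change 1.23), TEK (1.17) and NOTCH4 (1.31), the Notch ligand DLL4 (1.04) and the water channel AQP1 (1.48). KDR, the main VEGF receptor, had 0.56 with an unadjusted p-value of 0.0778. Of 7 further genes used as markers of lymphatic vessels, 2 had a log2 fold change above 0. Of the 7, 1 passed an unadjusted p-value of 0.05, CCL21, the chemokine that draws leukocytes into lymph vessels. CCL21 was higher in P cows, with a log2 fold change of -1.88 (SE 0.789, limma adjusted p = 0.588). Its P mean rested largely on P1541, at 1676 normalized counts, where the other P cows had 143 to 348 and the NP cows 22.4 to 349. The summed level of the 7 genes was highest in P1541 and P617, the cows with the highest smooth muscle levels. It was 11738 and 10840 there, 4144 to 6715 in the other P cows and 3891 to 7010 in NP cows. NR2F2 alone had 5674 in P1541 and 7331 in P617. Whether the 7 genes follow lymphatic vessels or other cells in such biopsies was not tested.

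**Figure D4:**
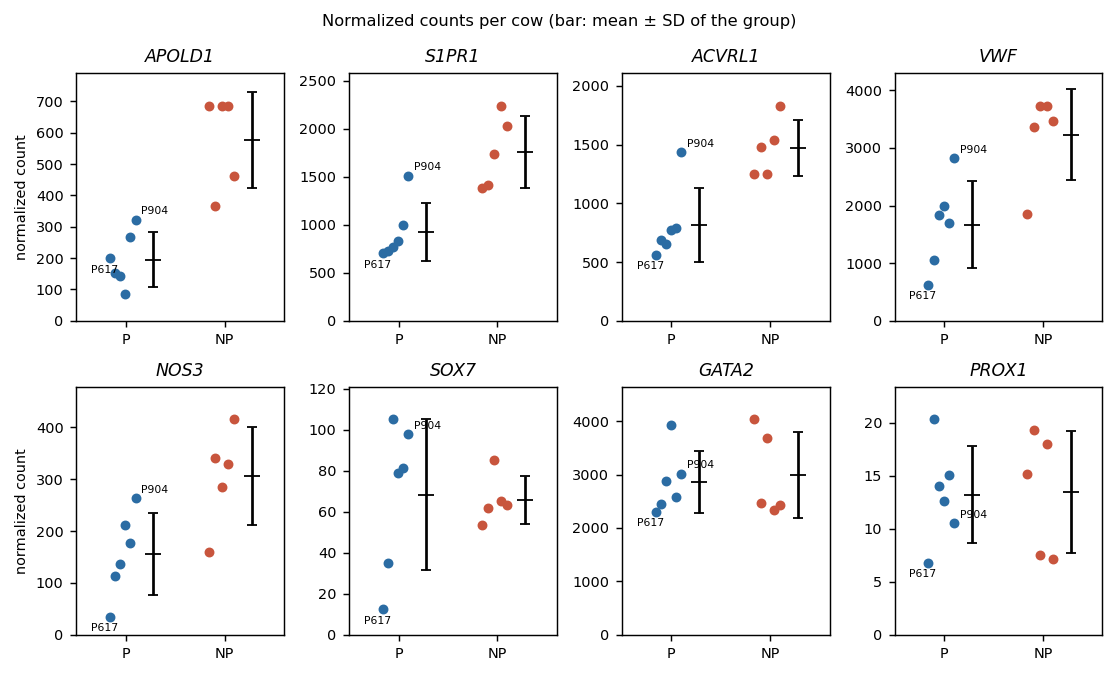
Normalized counts per cow of 8 members, with P cows in blue, NP cows in red, the mean ± SD of each group as a bar, and P904 and P617 named. In APOLD1 all NP cows lie above all P cows, in S1PR1 and ACVRL1 P904 alone reaches the NP range, and in SOX7, GATA2 and PROX1 the groups overlap widely.

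Markers of other cell types also differed between the cows, and their values are given beside the endothelial result. All 12 leukocyte and macrophage genes had a log2 fold change above 0, 5 of them with an unadjusted p-value under 0.05, and their summed level was 522 to 1123 normalized counts in P and 899 to 1869 in NP. The pericyte genes, which mark the cells wrapped around capillaries, had log2 fold changes above 0 in 6 of 6, with 3 at an unadjusted p-value under 0.05 (PDGFRB, RGS5 and ABCC9). Their summed levels were 4429 to 9377 in P and 7692 to 12491 in NP, but ANPEP, with a log2 fold change of 0.18, weighed heavily in these sums. Their mean log2(normalized count + 1) was 9.22 to 9.64 in the P cows other than P904, and 9.97 to 10.36 in NP cows. P904, at 10.14, lay in the NP range for pericyte genes too. The groups did not overlap in PDGFRB and ABCC9, compared with 0.855% of all genes. The stromal genes were above 0 in 10 of 10, with 3 at an unadjusted p-value under 0.05, and summed 128479 to 378907 in P and 269159 to 374734 in NP. Of the smooth muscle genes 0 of 10 were above 0, with a median log2 fold change of -1.32 and 2 (MYH11 and DES) higher in P cows at an unadjusted p-value under 0.05. Among the epithelial genes 9 of 11 were above 0, and 1, KRT7, had an unadjusted p-value under 0.05, being higher in P cows. Of the red cell, platelet and mast cell markers 3 of 12 were tested, with 0 at an unadjusted p-value under 0.05.

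With the smooth muscle score of each cow as a covariate, 10 members were higher in NP cows with an unadjusted p-value under 0.05, compared with 4.26% of all genes, and the median over the general genes was 0.53. These were APOLD1, S1PR1, ACVRL1, CDH5, TIE1, ERG, GPR116, ENG, SHANK3 and ECSCR. With the epithelial score as a covariate, limma called 5 members at an adjusted p-value under 0.1, all higher in NP cows, compared with 0.981% of all genes, namely APOLD1, S1PR1, ACVRL1, CDH5 and TIE1. The part of pericytes, stroma and leukocytes in the result was not tested.

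The general genes varied together across cows. Over the 465 pairs of general genes, the median Pearson correlation of log2(normalized count + 1) across the 11 cows was 0.79, and 85.8% of the pairs exceeded 0.5. Over all pairs of the 15081 genes tested the median was near 0 and 15.9% exceeded 0.5. With the mean of each group subtracted, the general genes still had a median of 0.67, and without P617 and P1541 it was 0.78. Between the 31 general and the 3 lymphatic genes the median was 0.30 over 93 pairs, and 0.18 with the group means subtracted. Among the lymphatic genes the correlations were -0.11 for LYVE1 and PROX1, 0.46 for LYVE1 and STAB1 and 0.40 for PROX1 and STAB1. With 3 genes, and PROX1 at low counts, whether they vary together as a set cannot be told. All these correlations are descriptions over 11 cows without a p-value, since genes of one library share its depth and its tissue composition.

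**Figure D5:**
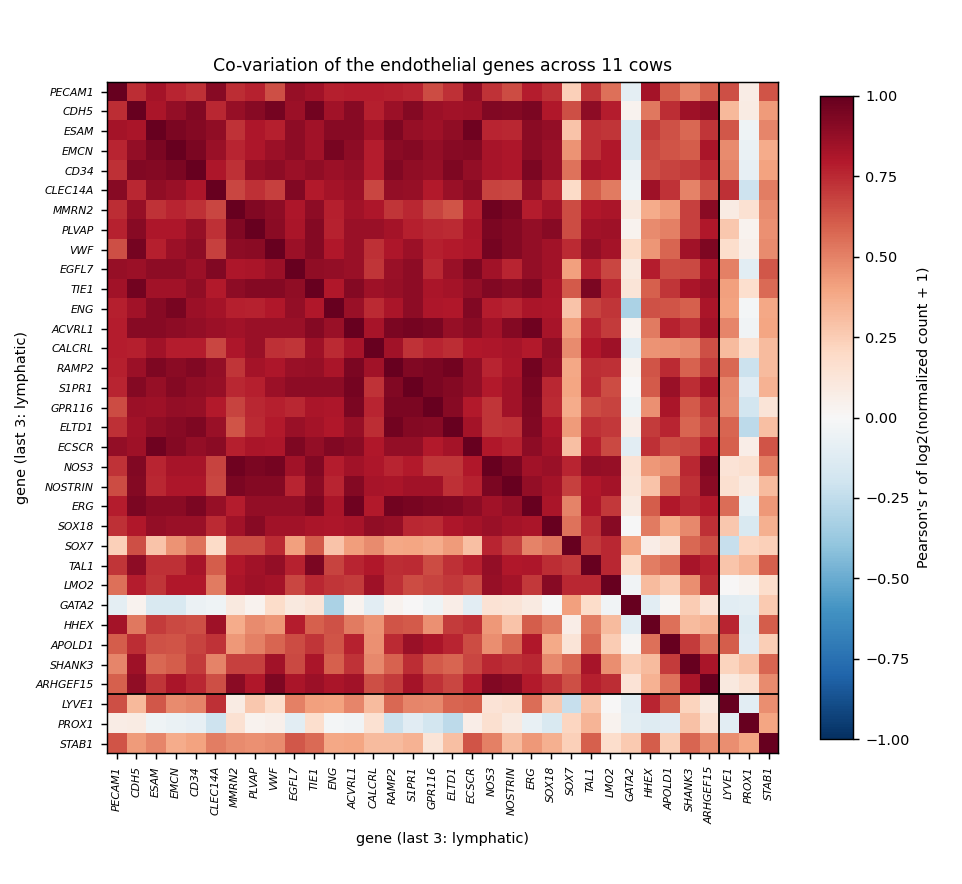
Pearson's r between each pair of the 34 genes on log2(normalized count + 1) over 11 cows, with the 3 lymphatic genes in the last rows and columns. The general genes have a median r of 0.79, and GATA2 and PROX1 appear as pale bands.

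Most general genes followed the mean of the others closely. Each was compared with the mean of the standardized remaining general genes over the 11 cows, which gave a median correlation of 0.90 and values over 0.5 for 30 of the 31. The closest were ERG and TIE1, both at 0.97, and CDH5, at 0.96. GATA2 was at 0.03, and SOX7, at 0.55, and HHEX, at 0.60, were the next lowest. The correlation of SOX7 with the mean of the epithelial markers was 0.92 over the 11 cows, with P617 the lowest cow in both. Without P617 and P1541 the correlation of SOX7 with the other general genes was -0.38. APOLD1 and SHANK3 were at 0.68 and 0.74, and at 0.24 and 0.42 once the group means were subtracted, the lowest values among the 25 members with an unadjusted p-value under 0.05. With the mean of the pericyte markers APOLD1 had 0.92, a value from which the group means were not subtracted. The general genes had a median of 0.66 with that mean, and ERG had 0.87, ACVRL1 0.85 and GPR116 0.85. With the mean of the standardized general genes, LYVE1 was at 0.43, STAB1 at 0.49 and PROX1 at 0.01 over the 11 cows. Without P617 and P1541, LYVE1 was at 0.78, STAB1 at 0.42 and PROX1 at -0.35, so the value of LYVE1 depended on these cows.

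Members whose proteins act together had correlations over the 11 cows that are to be read against the median of 0.79 over all pairs of general genes. The adrenomedullin receptor subunits CALCRL and RAMP2 had a correlation of 0.84, the receptor ACVRL1 and its co-receptor ENG 0.86, NOS3 and NOSTRIN 0.94, and CLEC14A and its ligand MMRN2 0.67, or 0.44 with the group means subtracted. Of the complex partners, TAL1 and LMO2 had 0.76, TAL1 and GATA2 0.18, and LMO2 and GATA2 -0.03. Without P617 and P1541 the value for TAL1 and LMO2 was 0.39 and that for SOX7 and SOX18 went from 0.54 to -0.06, whereas CALCRL and RAMP2 were at 0.90.

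Fitting the common endothelial level of each cow as a covariate, a choice made after seeing the data, left few differences between the groups. In this fit 1 member, APOLD1, was higher in NP cows with an unadjusted p-value under 0.05, compared with 2.30% of all genes, with a log2 fold change of 1.35. LMO2 was the 1 member higher in P cows with an unadjusted p-value under 0.05, compared with 234 of all 15081 genes. Its log2 fold change was -0.63. The median over the general genes was 0.02. The covariate was computed from the same genes, so it takes up most of their difference by construction.

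The genes outside the list most like the general members, by the correlation with their standardized mean over the 11 cows among 13795 other genes with a symbol, were CXHXorf36 (0.978), BEGAIN (0.972), LOC100336251 (0.967), PEAR1 (0.965), TEK (0.964), FGD5 (0.964), SHE (0.960), LOC100297676 (0.960), RASIP1 (0.957) and ROBO4 (0.957). TEK, FGD5, RASIP1 and ROBO4 are among the further blood vessel genes listed above. PEAR1 averaged 438 ± 183 (SD, n = 6) normalized counts in P and 929 ± 126 (SD, n = 5) in NP, and SHE averaged 59.5 ± 22.8 (SD, n = 6) and 139 ± 33.9 (SD, n = 5).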

How the data were processed

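RNA-Seq of 11 endometrial biopsies was analysed from 1 table. The authors mapped filtered reads with Bowtie2 2.1.0 to UMD3.1, counted them per gene with HTSeq 0.5.4p2 and normalized them with DESeq2 1.12.1, and the deposited values are these normalized counts (a signal with no value below 0). The annotation and the use of strand are not given in the sources used here. In every column 100% of the deposited values were whole multiples of the value of 1 read within 0.01 reads, so whole reads were recovered for count tests.

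Genes with a mean of 5 or more (15081) were tested on log2(value + 1) with limma 3.58.1 (eBayes with a trend) in R 4.3.3, with the Benjamini-Hochberg adjustment at 0.1. Alternatives were edgeR 4.0.16, DESeq2 1.42.0 and limma-voom on recovered reads, other scalings, pseudocounts, filters and covariates, and leaving out cows. The tests were run on simulated data as a check of the code only, with genes varying independently, unlike the members. All 34 members found were named, and beyond them the 10 genes most correlated with the general members. Members, lists and tests were chosen with earlier results of these data known. The planned promoter motif search was not run, because no sequence was used here, and no coordinates are given, because the gene reference is of another assembly.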

Additional observations from a re-analysis of the deposited data

Results flagged for a closer look

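In 11 of 68 combinations of a member and a group, the highest or lowest cow lay farther from the next than Dixon's 95% critical ratio allows on the log2 scale. About 1 in 20 would be flagged by chance, and the members vary together, so these are not separate events. P904 was flagged as the highest P cow in 6 genes, with 1903 normalized counts of EMCN (next 996), 1263 of CD34 (next 603), 1434 of ACVRL1 (next 787), 3743 of RAMP2 (next 1758), 2270 of GPR116 (next 1101) and 1179 of ELTD1 (next 482). NP238 was flagged as the lowest NP cow, with 538 normalized counts of CDH5 (next 791), 595 of CD34 (next 981) and 1847 of VWF (next 3361). P617 was flagged as the lowest P cow, with 103 normalized counts of MMRN2 (next 285) and 11.3 of TAL1 (next 43.4).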

How the results depend on the processing

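The direction of 17 of the 34 members was kept under all 26 alternatives, and with the endothelial covariate set aside it was kept in all members except SOX7, GATA2 and PROX1. No paired analysis was possible because the cow numbers of the 2 groups are not shared. Leaving out 1 cow at a time, 31 to 34 members were higher in NP cows, 17 (without NP2810) to 27 (without P904) members were higher in NP cows at an unadjusted p-value under 0.05, and 0 to 12 members were called after adjustment, the 12 without P904. In these fits the median was 0.64 to 0.92 over the general and 0.23 to 0.64 over the lymphatic genes, and the median correlation among the 34 members, 0.75 with all cows, was 0.70 to 0.78.

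Adjusted calls were 0 with all cows in limma, edgeR and limma-voom, 5 with DESeq2, 5 with the epithelial covariate and 12 without P617, P1541 and P904. Members with an unadjusted p-value under 0.05 that were higher in NP cows numbered 25 in the main analysis, 10 with the smooth muscle and 1 with the endothelial covariate, and those higher in P cows 1 without P617 and P1541 and 1 with the endothelial covariate. With the endothelial covariate 18 members were above 0 and the median was 0.02 over the general genes. The log2 fold changes that turned below 0 in that fit were -0.004 for PECAM1, -0.05 for ESAM, -0.22 for EMCN, -0.19 for CD34, -0.01 for MMRN2, -0.17 for PLVAP, -0.02 for VWF, -0.26 for CALCRL, -0.09 for ELTD1, -0.28 for NOS3, -0.36 for SOX18, -0.94 for SOX7, -0.07 for TAL1, -0.63 for LMO2 and -0.13 for HHEX. SOX7 was also below 0 in edgeR (-0.05), in DESeq2 (-0.06), without P617 and P1541 (-0.47), without P617, P1541 and P904 (-0.43) and with the smooth muscle covariate (-0.38), and ranged from -0.20 to 0.40 when each cow was left out. GATA2 was -0.08 without P617 and P1541 and also without P904 in addition, -0.18 with the smooth muscle covariate, and -0.07 to 0.14 when each cow was left out. PROX1 was 0.07 with library totals, 0.03 in edgeR and in DESeq2, 0.19 with the smooth muscle covariate, and -0.18 to 0.16 when each cow was left out. PROX1, at about 13 normalized counts, is limited by depth, and it could not be given a value with a minimum mean of 20.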
